A study of Homo sapiens with 36 samples.

Results

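The genes followed here regulate or carry out fatty acid synthesis: SREBF1, MLXIPL, ACLY, ME1, ACACA, ACACB, FASN, ELOVL6, SCD and SCD5. They were taken by gene symbol from a table of RNA-seq counts and are 10 of its 58243 genes. The 3 human lines were derived from pancreatic ductal adenocarcinoma (BxPC-3, PANC-1 and MIA PaCa-2), and each was given the vehicle DMSO or 1 of 3 ligands of the liver X receptors (LXR) for 48 h at 10 µM. GW3965 is an LXR agonist, and the code names 1E5 and 3A4 stand for compounds that the labels call inverse agonists. Every line and ligand had 3 libraries, which gives 12 groups and 36 libraries. PANC-1 and MIA PaCa-2 grew in DMEM and BxPC-3 in RPMI 1640, always with 10% fetal bovine serum, so a difference between BxPC-3 and the other lines cannot be told apart from one between media. The titles call the replicates biological but do not say that they were separate cultures, so the p-values speak only of the spread from library to library, which may be technical.

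LXRs are nuclear receptors that sense oxysterols, bind DNA with a retinoid X receptor, and switch on genes of cholesterol export and of fatty acid synthesis. SREBF1 encodes SREBP-1, a membrane-bound factor that is cut free to enter the nucleus and induce lipogenic genes, and it is a classical LXR target in liver. MLXIPL encodes ChREBP, the carbohydrate-responsive factor that acts on many of the same genes. The enzymes then act in sequence. ACLY makes cytosolic acetyl-CoA from citrate, ME1 (malic enzyme) supplies NADPH, the carboxylases ACACA (cytosolic) and ACACB (at mitochondria) make malonyl-CoA, FASN assembles palmitate, ELOVL6 lengthens it, and the desaturases SCD and SCD5 place the double bond that turns saturated into monounsaturated acids.

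Levels are counts per 1000000 counts (CPM) after TMM scaling, and values of 3 libraries are listed in the order of replicates 1, 2 and 3. Fold changes are edgeR estimates within a line with their standard error (SE), and a change was called at an adjusted p under 0.05 over all genes tested. The libraries of BxPC-3 held 19605935 to 25888304 counts and those of PANC-1 14960970 to 26026684, while MIA PaCa-2 ranged from 2701393 to 25503827, with its DMSO and GW3965 libraries below its 1E5 libraries in depth. Epithelial and ductal markers were above 1 CPM on average for 7 of 8 genes in BxPC-3 and PANC-1 and for 5 of 8 in MIA PaCa-2, where CDH1 averaged 0.196 CPM and EPCAM 0.0092 CPM. Markers of adipocytes and hepatocytes, cells known for high lipogenesis, summed to at most 3.62 CPM in any library.

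Some libraries stood apart from their replicates. In PANC-1, 1E5 replicate 2 lay more than 2-fold from the mean of the other 2 libraries of its group in 8.99% of genes, against 4.02% for replicate 1 and 1.76% for replicate 3. Its mitochondrial share of counts was 6.59%, against 2.69% and 3.91% in replicates 1 and 3 and 6.0% to 7.23% in DMSO. In BxPC-3, 1E5 replicate 1 was not apart over all genes (1.78%, against 1.54% and 1.42%) but was low for several members, and its mitochondrial share was 6.01% against 8.38% and 8.63%. In MIA PaCa-2 the libraries under 5000000 counts were also the ones farthest from their replicates: GW3965 replicate 3 in 10.3% of genes, DMSO replicate 3 in 7.26% and GW3965 replicate 1 in 6.78%, against 1.46% to 6.15% for the other 9.

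In GENCODE 29 on GRCh38, the loci are SREBF1 at chr17:17810399-17837002, ACLY at chr17:41866908-41930542, ACACA at chr17:37084988-37406818 and FASN at chr17:82078333-82098332. SCD lies at chr10:100347124-100364834, ME1 at chr6:83210389-83431071, MLXIPL at chr7:73593194-73624543 and ACACB at chr12:109116595-109268226. ELOVL6 lies at chr4:110045846-110199199 and SCD5 at chr4:82629539-82798857. Counts are per gene, so exon and UTR reads cannot be told apart.

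Promoter windows from RefSeq (GRCh38.p14, 250 bases before to 50 after the start) were found for 9 of the 10 genes in 13 windows. FASN had none. The windows of SCD, ACLY, ME1 and SREBF1 are shown for the main desaturase, the enzyme that supplies cytosolic acetyl-CoA, the NADPH source and the regulator. Capitals mark the CCAAT box (CCAAT, or ATTGG on the other strand) in SCD and ACLY and the core TGACNNNGC of the antioxidant response element, on either strand, in ME1. The last of these motifs was added after the values were seen. SREBF1 has no capitals.
SCD (chr10:100346983-100347282, plus strand): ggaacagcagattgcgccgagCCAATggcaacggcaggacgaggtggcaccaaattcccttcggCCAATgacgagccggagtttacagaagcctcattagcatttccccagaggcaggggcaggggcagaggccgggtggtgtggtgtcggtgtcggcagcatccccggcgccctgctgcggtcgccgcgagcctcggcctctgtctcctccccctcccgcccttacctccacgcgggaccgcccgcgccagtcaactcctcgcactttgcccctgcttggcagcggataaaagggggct
ACLY (chr17:41918973-41919272, minus strand): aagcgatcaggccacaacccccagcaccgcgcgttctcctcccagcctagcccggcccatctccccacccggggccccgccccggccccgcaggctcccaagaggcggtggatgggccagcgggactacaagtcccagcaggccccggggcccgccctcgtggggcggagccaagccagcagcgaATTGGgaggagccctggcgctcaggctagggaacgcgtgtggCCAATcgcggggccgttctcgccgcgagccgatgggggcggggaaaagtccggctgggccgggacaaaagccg
ME1 (chr6:83431002-83431301, minus strand): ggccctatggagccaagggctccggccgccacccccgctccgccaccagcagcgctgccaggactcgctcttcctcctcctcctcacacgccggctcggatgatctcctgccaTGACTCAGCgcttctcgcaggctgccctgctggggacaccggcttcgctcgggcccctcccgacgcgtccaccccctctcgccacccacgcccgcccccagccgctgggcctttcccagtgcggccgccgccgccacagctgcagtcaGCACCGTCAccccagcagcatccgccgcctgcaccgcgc
SREBF1 (chr17:17836937-17837236, minus strand): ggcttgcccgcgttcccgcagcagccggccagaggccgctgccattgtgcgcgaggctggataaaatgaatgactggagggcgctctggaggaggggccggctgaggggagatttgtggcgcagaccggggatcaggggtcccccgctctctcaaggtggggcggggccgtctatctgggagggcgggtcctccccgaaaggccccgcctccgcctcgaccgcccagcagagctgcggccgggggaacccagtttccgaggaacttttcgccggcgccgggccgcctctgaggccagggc
Both strands were searched in all 35116 promoter windows of this length. Positions count from the RefSeq start of each window, which need not be the end of the GENCODE locus. The ACLY window shown lies inside that gene's locus. SCD had 2 CCAAT boxes, starting -229 and -186 bases from the start of its window's transcript, and ACLY had 2 in the window shown, at -65 and -23. Of all windows, 34.6% held the motif. ME1 held the antioxidant response core at -137 and 11, and 13.3% of all windows held it. The sterol regulatory element TCACNCCAC (1.13% of all windows), the E-box CACGTG (7.26%) and the LXR-type direct repeat of AGGTCA with any 4 bases between (0.0199%) were in none of the members' 13 windows. SREBF1 held the GC box GGGCGG, which 45% of all windows held, 3 times. Every other member with a window held the GC box as well, and the CCAAT box was also in windows of ACACA, ACACB and SCD5. A match is a description of letters in the window and not of a bound site.

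In DMSO, SCD was the most abundant of the 10 transcripts per length in every line, and the lines differed most in ELOVL6, MLXIPL and ACACB. SCD stood at 326 ± 54.5 CPM per kilobase of exon in BxPC-3 (SD, n = 3). It stood at 275 ± 46.3 in MIA PaCa-2, and PANC-1 had 1480 ± 522. FASN stood at 43.0, 57.5 and 150 CPM per kilobase in the same order of lines, and ACLY at 38.7, 85.7 and 76.6. SREBF1 was nearly level, at 24.1, 18.6 and 23.6 CPM per kilobase.

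**Figure D1:**
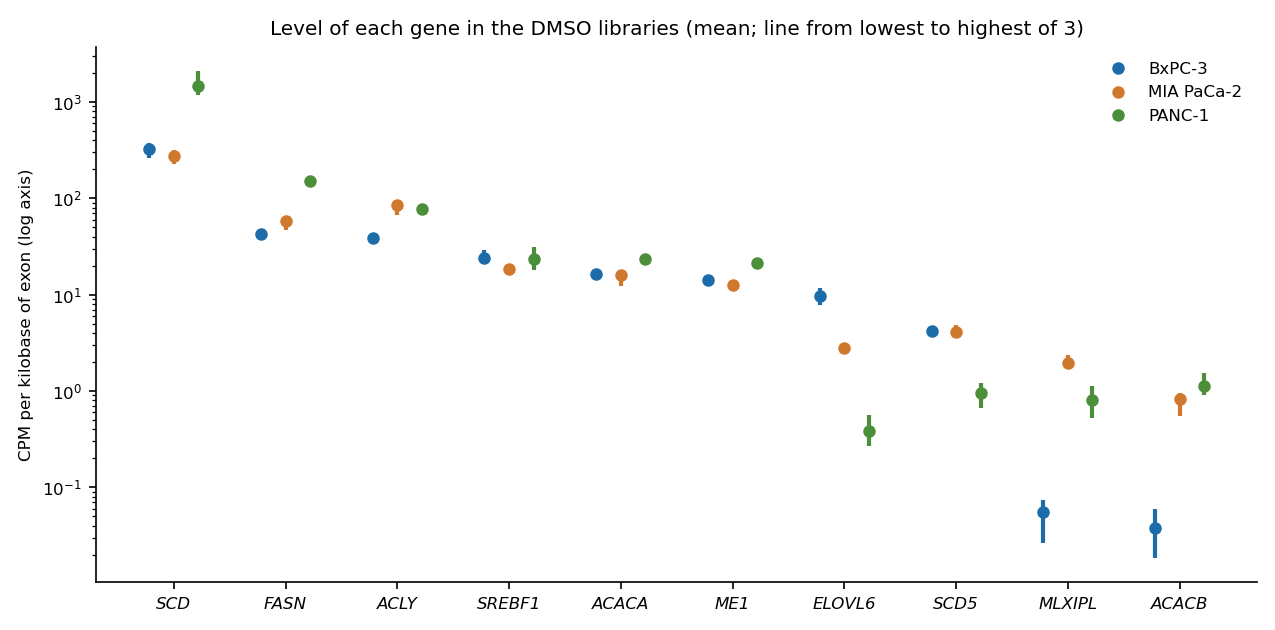
Level of each gene in the 3 DMSO libraries of each line, as CPM per kilobase of exon on a log axis; points are means and vertical lines run from the lowest to the highest library. SCD leads in all 3 lines, and the spread between lines is widest for ELOVL6, MLXIPL and ACACB.

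The order of the genes within a line was similar at the top and differed at the bottom. In BxPC-3 it ran SCD, FASN, ACLY, SREBF1, ACACA, ME1, ELOVL6 (9.74 CPM per kilobase), SCD5 (4.15), MLXIPL (0.055) and ACACB (0.038), with overlapping libraries for the neighbours FASN and ACLY and for MLXIPL and ACACB. In MIA PaCa-2 ACLY came before FASN, and SREBF1 and ACACA overlapped, as did ACACA and ME1. There ELOVL6 stood at 2.76 CPM per kilobase, SCD5 at 4.12, MLXIPL at 1.97 and ACACB at 0.818. In PANC-1 SREBF1, ACACA and ME1 overlapped, and so did each neighbour among ACACB (1.13), SCD5 (0.941), MLXIPL (0.810) and ELOVL6 (0.387).

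Tested between lines in DMSO with all 36 libraries in 1 edgeR fit, 9 of the 10 genes differed between BxPC-3 and PANC-1, where 52.5% of all genes did. SREBF1 was the exception (log2 0.03 ± 0.31 SE, adjusted p = 0.961). ELOVL6 was 25-fold and SCD5 4.39-fold higher in BxPC-3 than in PANC-1, while SCD was 4.55-fold, FASN 3.48-fold and ACLY 1.98-fold lower (adjusted p from 7.66e-14 to 0.000187). Against MIA PaCa-2, BxPC-3 differed in 4 genes, where 57.4% of all genes differed: MLXIPL (35.1-fold lower), ACACB (21.5-fold lower), ACLY (2.22-fold lower) and ELOVL6 (3.52-fold higher). MIA PaCa-2 and PANC-1 differed in 7 genes, with 51.2% of all genes as the background. SCD was 5.38-fold and FASN 2.60-fold lower in MIA PaCa-2 than in PANC-1, ELOVL6 was 7.10-fold higher, and MLXIPL was 2.42-fold higher (adjusted p = 0.0445). That last call ended without any 1 of 7 of the 9 DMSO libraries (adjusted p from 0.0516 to 0.16, the highest without MIA PaCa-2 replicate 1), which were all but BxPC-3 replicate 3 and PANC-1 replicate 2. The share of members that differed was thus below the background between BxPC-3 and MIA PaCa-2 and above it in the other comparisons. These shares of 10 genes were not tested against it.

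With GW3965 SREBF1, FASN and SCD were called higher in BxPC-3 and MIA PaCa-2, ME1 in BxPC-3 and PANC-1, ACACA in BxPC-3 and ACLY in PANC-1. In all 3 lines each GW3965 library was above each DMSO library for SREBF1, FASN and SCD. The 10 genes together took 0.232% to 0.304% of all counts in BxPC-3 with DMSO and 0.713% to 0.887% with GW3965. In PANC-1 they took 0.885% to 1.43% with DMSO and 2.46% to 2.97% with GW3965, and SCD alone made up 2.00% to 2.50% there. ELOVL6 and SCD5, by contrast, were called in no line.

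**Figure D2:**
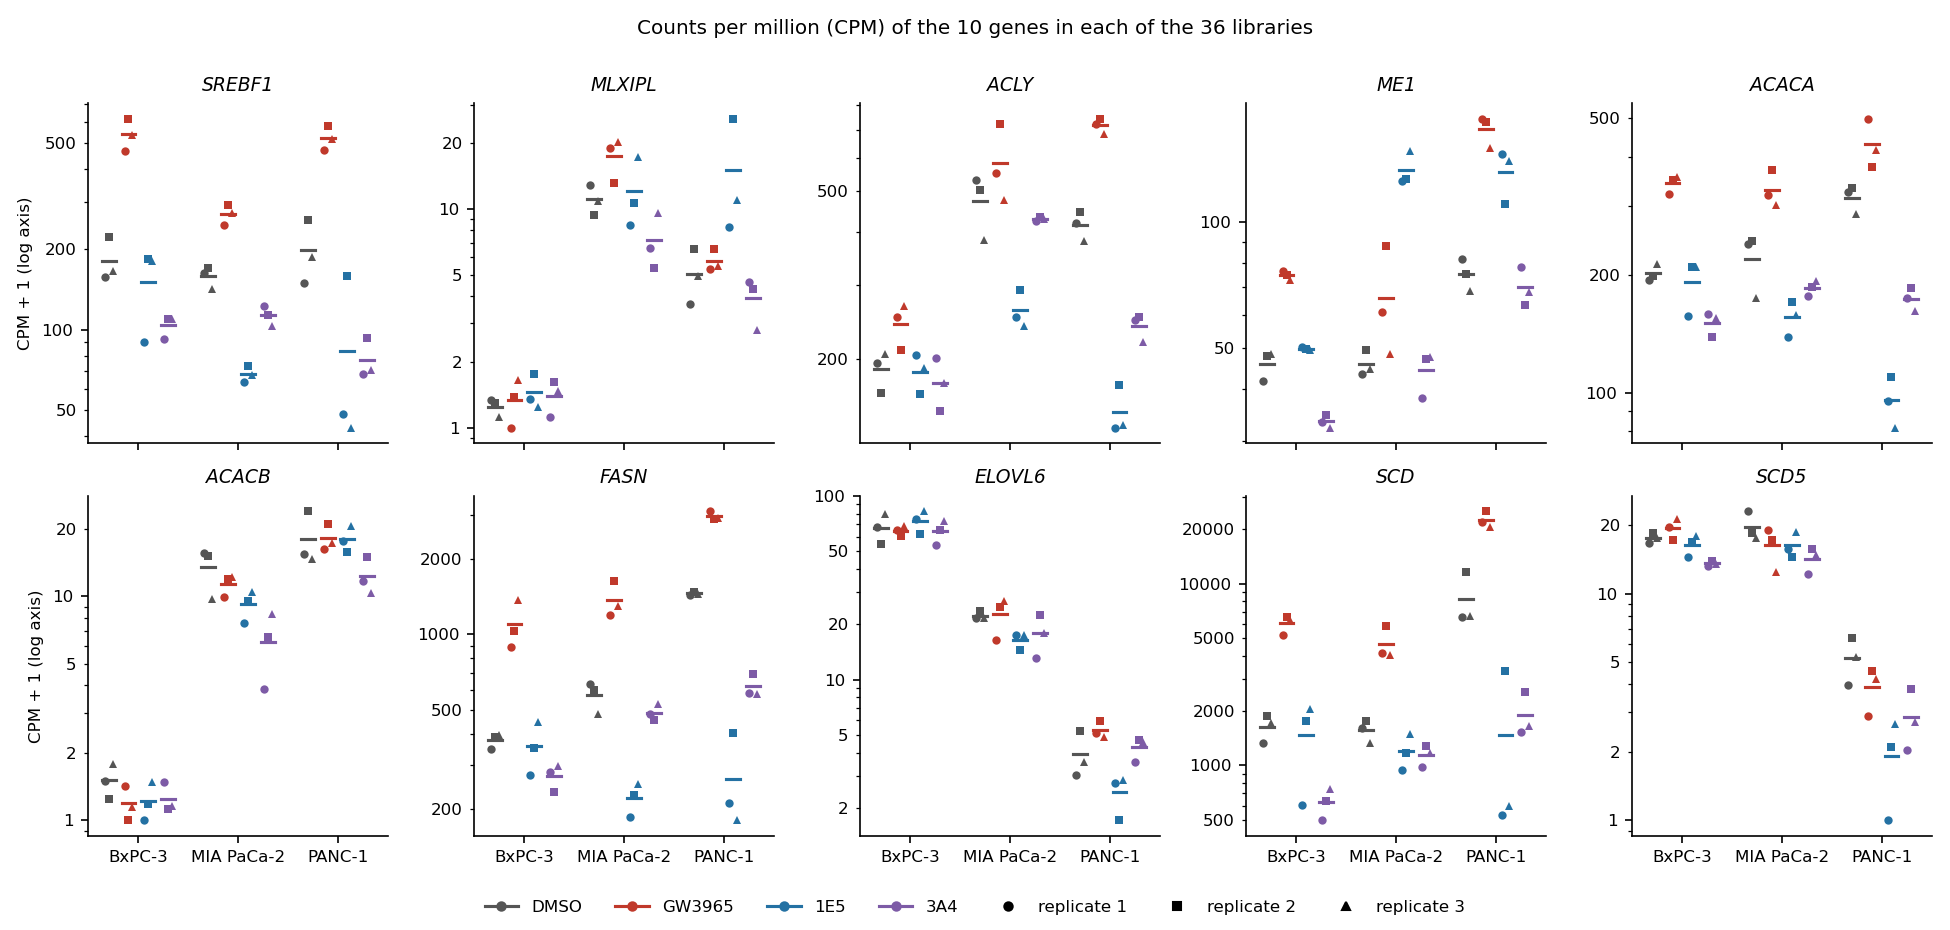
CPM + 1 of each gene in each of the 36 libraries (log axis, 1 panel per gene, scales differ between panels), by line and ligand; symbols give the replicate and short lines the group mean. With GW3965 the SREBF1, FASN and SCD points lie above all DMSO points of the same line, and in PANC-1 the square for 1E5 replicate 2 lies apart from the other 2 1E5 libraries for SREBF1 and SCD.

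SREBF1, the regulator, was at 156, 221 and 165 CPM in BxPC-3 with DMSO and at 465, 616 and 534 with GW3965. The groups did not overlap, and the rise was 2.98-fold (log2 1.58 ± 0.24, adjusted p = 0.0112). MIA PaCa-2 went from 162, 170 and 141 CPM to 245, 292 and 271, a 1.71-fold rise (log2 0.77 ± 0.13, adjusted p = 0.0219). PANC-1 showed 149, 257 and 185 CPM with DMSO and 470, 576 and 516 with GW3965, again without overlap. That difference of log2 1.40 ± 0.42 was not called (adjusted p = 0.637), and it was called without PANC-1 1E5 replicate 2, which enters the spread shared by the line's 4 groups (log2 1.40, adjusted p = 0.0256). No other library of the line, left out in turn, gave a call. The calls of SREBF1 ended without BxPC-3 DMSO replicate 1 (adjusted p = 0.0685) and, in MIA PaCa-2, without any DMSO library or GW3965 replicate 1 or 2 (adjusted p from 0.058 to 0.0961) or the libraries under 5000000 counts (0.157). The MIA PaCa-2 call also ended with only the compared groups (0.0518) and with all 36 libraries in 1 fit (0.332). MLXIPL was not called in any line. It stayed under 1 CPM in BxPC-3 libraries, stood at 11.9, 8.37 and 9.86 CPM with DMSO and 17.9, 12.2 and 19.2 with GW3965 in MIA PaCa-2, and differed by log2 0.24 in PANC-1 (95% interval -0.73 to 1.21).

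FASN, the palmitate synthase, stood at 346, 387 and 393 CPM in BxPC-3 with DMSO and at 888, 1033 and 1370 with GW3965, 2.92-fold higher (log2 1.55 ± 0.19, adjusted p = 0.00355). In MIA PaCa-2 it went from 632, 597 and 478 to 1192, 1631 and 1292 CPM, 2.41-fold higher (adjusted p = 0.00632). Its PANC-1 libraries were close together, at 1437, 1479 and 1452 CPM with DMSO and 3100, 2883 and 2917 with GW3965. This 2.04-fold difference (log2 1.03 ± 0.24) had an adjusted p of 0.332 with all 12 libraries of the line and of 0.000935 without 1E5 replicate 2. It was also called by DESeq2 (0.0102), with only the compared groups (0.00388) and with every line fitted together (0.0473). With other single libraries left out the adjusted p reached 0.855. The FASN groups did not overlap in any of the 3 lines.

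SCD, the main desaturase, showed the highest levels and the largest rises. BxPC-3 went from 1334, 1857 and 1700 CPM to 5246, 6586 and 6304 (3.71-fold, log2 1.89 ± 0.35, adjusted p = 0.0241). MIA PaCa-2 went from 1594, 1756 and 1331 CPM to 4150, 5881 and 4024 (3.00-fold, log2 1.59 ± 0.20, adjusted p = 0.00632). The SCD calls of BxPC-3 and MIA PaCa-2 ended with all 36 libraries in 1 fit (0.0539 and 0.0945). PANC-1 had 6548, 11541 and 6645 CPM with DMSO, replicate 2 being the high one, and 21896, 25040 and 20484 with GW3965. The groups did not overlap, but the PANC-1 difference of log2 1.45 ± 0.58 was not called (adjusted p = 1.0). Its adjusted p was 0.0532 without PANC-1 1E5 replicate 2, which enters the shared spread, and 0.139 with only the compared groups. It was thus not called in these fits either. In BxPC-3 the SCD call ended without any 1 of the 6 libraries compared (adjusted p from 0.0518 without GW3965 replicate 1 to 0.121 without DMSO replicate 1). SCD5, its homologue, was at 15.7, 17.5 and 16.6 CPM with DMSO and 18.6, 16.2 and 20.3 with GW3965 in BxPC-3, with overlapping groups.

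The supply enzymes differed between lines in which passed the test. ME1 rose in BxPC-3 from 40.8, 46.8 and 47.4 CPM to 75.4, 73.9 and 71.9 (1.64-fold, log2 0.71 ± 0.09, adjusted p = 0.00355). It also rose in PANC-1, from 80.8, 74.1 and 67.5 CPM to 176, 173 and 150 (2.24-fold, log2 1.17 ± 0.13, adjusted p = 0.00773). ME1 libraries overlapped in MIA PaCa-2 because GW3965 replicate 3 stood at 47.6 CPM, against 60.1 and 87.0 in the others and 42.5 to 48.5 with DMSO. The PANC-1 call of ME1 ended without DMSO replicate 3 (adjusted p = 0.0608) or GW3965 replicate 1 (0.0674).

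ACLY rose in PANC-1 from 419, 446 and 381 CPM to 720, 743 and 684 (1.72-fold, log2 0.78 ± 0.12, adjusted p = 0.0489). This call sat at the threshold, and leaving out any 1 of 10 of the 12 PANC-1 libraries ended it (adjusted p from 0.0579 to 0.253), the exceptions being DMSO replicate 2 and 1E5 replicate 2. In BxPC-3 ACLY stood at 195, 165 and 205 CPM with DMSO and 250, 209 and 266 with GW3965, log2 0.36 ± 0.14, which was not called (adjusted p = 0.32). ACACA rose in BxPC-3 from 193, 198 and 212 CPM to 321, 347 and 355 (1.70-fold, log2 0.76 ± 0.12, adjusted p = 0.0115). That call ended without DMSO replicate 1 (0.0685), DMSO replicate 2 (0.0522) or GW3965 replicate 3 (0.0507). ACACA was 1.5-fold higher in MIA PaCa-2 without overlap and 1.37-fold higher in PANC-1, also without overlap, and neither was called (adjusted p = 0.16 and 0.637). The MIA PaCa-2 rise was called by DESeq2 (0.00776) and with all 36 libraries in 1 fit (0.0395). With a single library left out its adjusted p reached 0.379. ACACB, the carboxylase tied to the control of fatty acid oxidation, was under 1 CPM in BxPC-3 and differed by log2 0.01 in PANC-1 (95% interval -0.48 to 0.50).

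Counted together, 5 of the 10 genes were called higher with GW3965 in BxPC-3, where 0.477% of all 18042 genes were called higher and 0.848% lower. In MIA PaCa-2 the count was 3, against a background of 0.418% higher and 0.105% lower among 16254 genes. There 5 of the 10 had every GW3965 library above every DMSO library, which 6.65% of all genes had. In PANC-1 it was 2, with 0.0431% of 18544 genes called higher and 0.00539% lower; 6 of the 10 had no overlap and were higher, which 6.54% of all genes had. Without 1E5 replicate 2, PANC-1 had 4 called (SREBF1, ACLY, ME1 and FASN), against 0.136% of genes. Leaving out single libraries moved the count between 2 and 5 in BxPC-3 and between 0 and 4 in PANC-1. No member was called lower, and the median log2 change of the 10 was 0.58, 0.57 and 0.67 in the 3 lines, beside medians of -0.004, -0.001 and 0 over all genes tested.

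**Figure D3:**
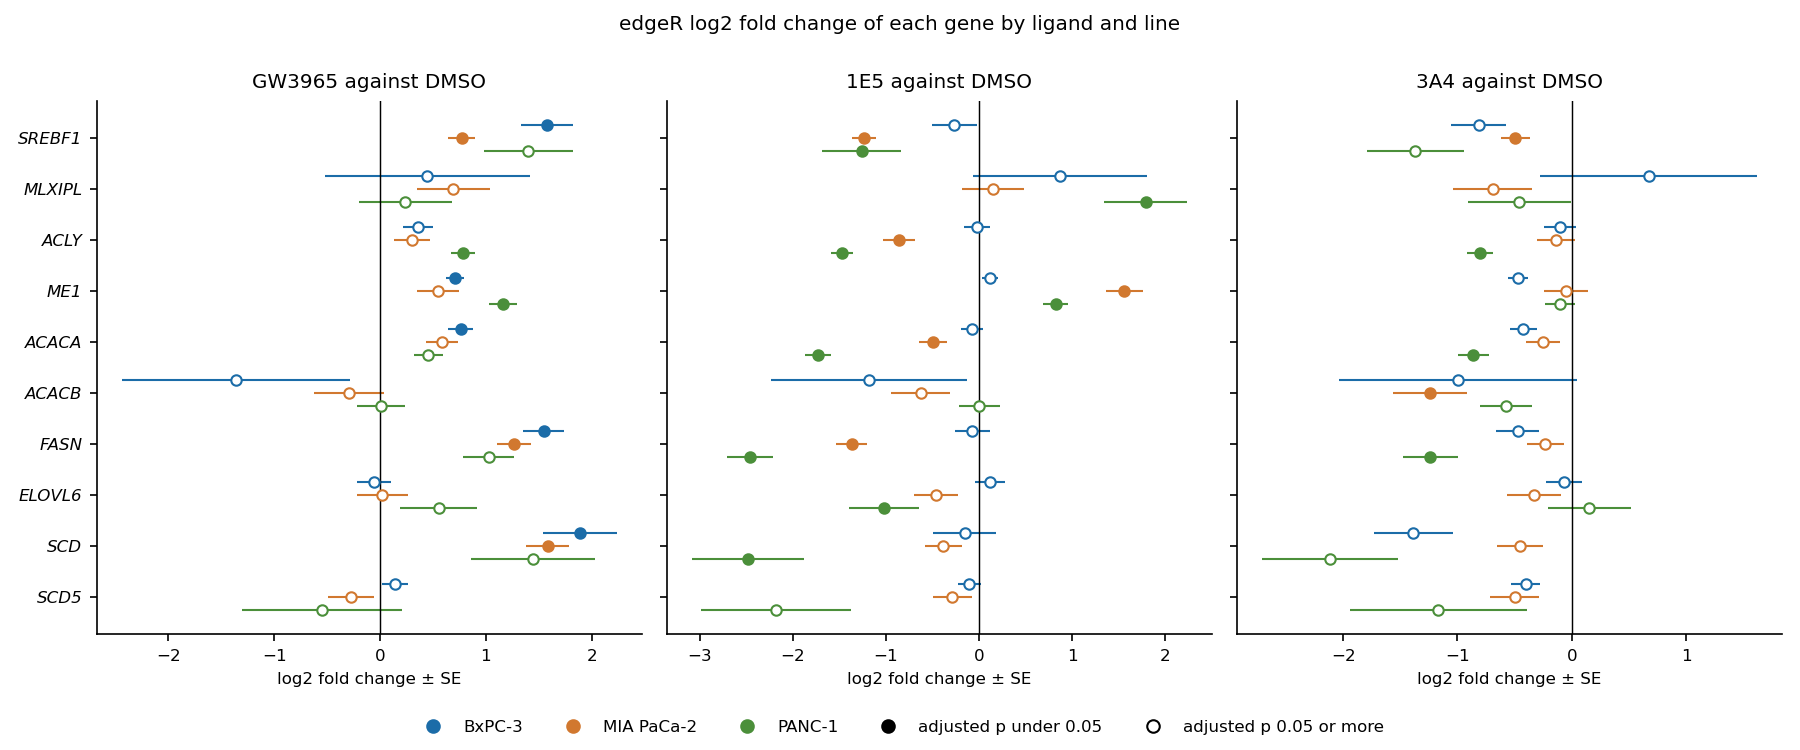
Log2 fold change against DMSO with its SE (horizontal axis) for each gene (rows), ligand (panels, with their own scales) and line (colours); filled points have an adjusted p under 0.05. SREBF1, FASN and SCD lie to the right of 0 with GW3965 in all 3 lines, and with 1E5 ME1 lies to the right and FASN to the left in MIA PaCa-2 and PANC-1.

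With 1E5, 6 members fell in PANC-1 and 4 in MIA PaCa-2 while ME1 rose in both lines, and no member was called in BxPC-3. Over all genes 19.3% were called lower and 19.7% higher in PANC-1, and 23.4% lower and 23.6% higher in MIA PaCa-2, so that the 5 of 10 members called in either direction there are near the share over all genes. FASN fell 5.52-fold in PANC-1 and 2.58-fold in MIA PaCa-2. SREBF1, ACLY and ACACA fell in both of these lines, and SCD and ELOVL6 fell in PANC-1. MLXIPL rose in PANC-1. In BxPC-3 edgeR called no gene of 18042 in either direction (0% higher and 0% lower), no member had an unadjusted p under 0.05 (3.17% of all genes had), and DESeq2 called 0 members (0.0665% of all genes). For FASN the 95% interval of the log2 difference there ran from -0.49 to 0.34, and for SCD from -0.89 to 0.58.

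SREBF1 was at 62.5, 72.1 and 66.4 CPM in MIA PaCa-2 with 1E5, against 162, 170 and 141 with DMSO, a 2.36-fold fall (log2 -1.24 ± 0.13, adjusted p = 1.19e-05). In PANC-1 its 1E5 libraries disagreed: replicates 1 and 3 were at 47.1 and 41.9 CPM, and replicate 2 at 158 CPM lay inside the DMSO range of 149 to 257. Their mean fell by 1.26 ± 0.42 on the log2 scale (adjusted p = 0.0341), and by 2.14 without replicate 2 (adjusted p = 5.22e-05). The call ended without DMSO replicate 2 (adjusted p = 0.107), DMSO replicate 3 (0.0638), 1E5 replicate 1 (0.103) or 1E5 replicate 3 (0.104). SREBF1 shares 556 of its 8030 exon bases with RAI1 on the opposite strand. The library kit keeps strand, but the strand setting of the counting is not given in the sources used here. RAI1 was called in none of the 12 ligand comparisons but 1E5 in PANC-1 (log2 -0.72, adjusted p = 0.00284). Counts per gene do not separate the isoforms of SREBF1.

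MLXIPL was low in PANC-1, with 54, 137 and 101 counts with DMSO and 183, 561 and 257 with 1E5. In PANC-1 it stood at 2.66, 5.56 and 3.92 CPM with DMSO and at 7.27, 24.9 and 9.94 with 1E5, a rise of 1.79 ± 0.45 on the log2 scale (adjusted p = 0.00829). Replicate 2 was again the outlying library, this time the high one, and without it the rise was log2 1.09 (adjusted p = 0.0247). In MIA PaCa-2 the 1E5 libraries, at 7.41, 9.63 and 16.3 CPM, overlapped DMSO.

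ACLY, which feeds acetyl-CoA into the pathway, fell from 531, 504 and 382 CPM to 251, 290 and 238 in MIA PaCa-2 (1.82-fold, log2 -0.86 ± 0.17, adjusted p = 0.00116). The fall in PANC-1 was from 419, 446 and 381 CPM to 137, 172 and 139 (2.78-fold, log2 -1.48 ± 0.12, adjusted p = 4.95e-06). ACACA stood at 238, 243 and 173 CPM with DMSO and 138, 170 and 157 with 1E5 in MIA PaCa-2 (log2 -0.50 ± 0.15, adjusted p = 0.0155). The highest 1E5 library and the lowest DMSO library were close, and the call ended without DMSO replicate 1 (0.0778), DMSO replicate 2 (0.0879) or 1E5 replicate 1 (0.0713). In PANC-1 ACACA fell from 324, 331 and 285 to 94.6, 109 and 80.6 CPM (3.31-fold, log2 -1.73 ± 0.14, adjusted p = 5.95e-06). ACACB did not follow ACACA in PANC-1: it stood at 14.4, 22.9 and 13.7 CPM with DMSO and 16.7, 14.7 and 19.6 with 1E5 (95% interval of the log2 difference -0.49 to 0.50).

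FASN in MIA PaCa-2 stood at 186, 226 and 250 CPM with 1E5 against 632, 597 and 478 with DMSO (log2 -1.37 ± 0.16, adjusted p = 3.26e-05). Its level in PANC-1 dropped from 1437, 1479 and 1452 CPM to 210, 403 and 179 (log2 -2.46 ± 0.25, adjusted p = 2.5e-05). These 3 libraries held 14.4%, 27.7% and 12.3% of the DMSO mean, so even the outlying replicate was far below DMSO. Without it the difference was log2 -2.90 (adjusted p = 1.37e-07). ELOVL6 was low in PANC-1, at 2.02, 4.22 and 2.56 CPM with DMSO and 1.75, 0.71 and 1.86 with 1E5. Its fall was called narrowly (log2 -1.02 ± 0.37, adjusted p = 0.0482), and leaving out any 1 of 10 of the 12 libraries ended the call (adjusted p from 0.0538 to 0.196), the exceptions being DMSO replicate 1 and 1E5 replicate 3.

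SCD replicates disagreed in PANC-1. Its DMSO libraries were at 6548, 11541 and 6645 CPM and its 1E5 libraries at 529, 3298 and 594. Replicates 1 and 3 thus held 6.42% and 7.20% of the DMSO mean, and replicate 2 held 40.0%. The groups did not overlap, and the fall was 5.59-fold with all libraries (log2 -2.48 ± 0.60, adjusted p = 0.00706) and log2 -3.87 without replicate 2 (adjusted p = 8.81e-06). SCD in MIA PaCa-2 was not called (936, 1170 and 1480 CPM against 1594, 1756 and 1331, log2 -0.38 ± 0.20, adjusted p = 0.127), and was called without 1E5 replicate 3 (adjusted p = 0.0449). With another MIA PaCa-2 library left out the adjusted p reached 0.402. Reads that SCD shares with its processed pseudogene SCDP1 could be split between them, but SCDP1 had 1710 counts over the 36 libraries and SCD 3444470. SCD5 in PANC-1 had no count in 1E5 replicate 1, which allows up to 0.126 CPM (3 counts, counting error only), and 1.11 and 1.66 CPM in the others, against 2.96, 5.35 and 4.27 with DMSO. Its difference was just past the threshold (adjusted p = 0.051), and it was called without 1E5 replicate 1 (0.0219) or 1E5 replicate 3 (0.0383). With another PANC-1 library left out the adjusted p reached 0.122. The SCD5 fall was also called by DESeq2 (0.016), with the replicate block (0.0209) and with all 36 libraries in 1 fit (0.000863). It was not called with only the compared groups (0.126), under RLE scaling or without the filter.

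ME1 moved against the other enzymes. In MIA PaCa-2 it rose from 42.5, 48.5 and 43.5 CPM to 125, 126 and 147 with 1E5 (2.95-fold, log2 1.56 ± 0.20, adjusted p = 4.65e-05). In PANC-1 it rose from 80.8, 74.1 and 67.5 to 145, 110 and 139 CPM (1.77-fold, log2 0.83 ± 0.13, adjusted p = 0.000593). GW3965 had also raised it in PANC-1, so this gene was above DMSO with an agonist and with a compound labelled inverse agonist.

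**Figure D4:**
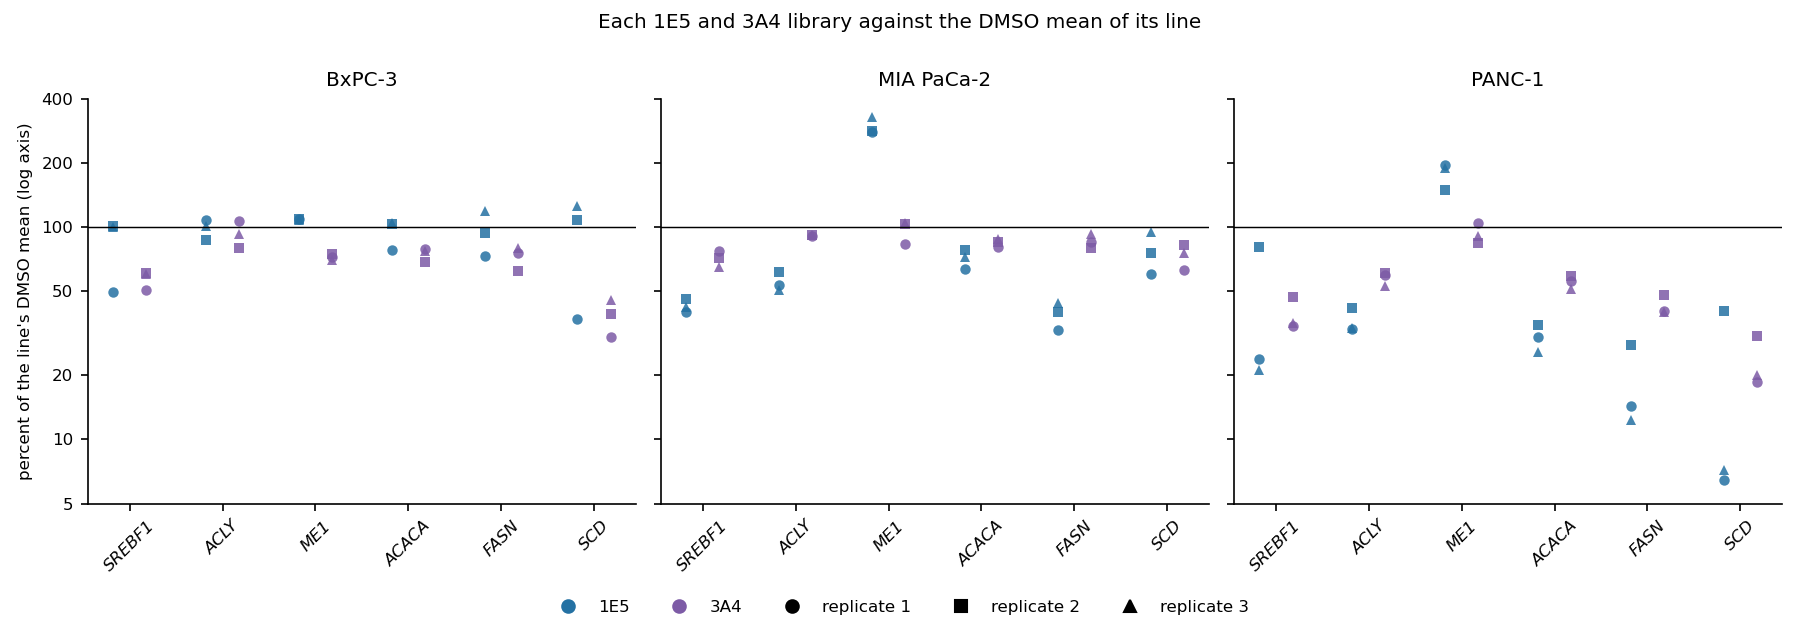
Each 1E5 and 3A4 library as a percentage of the DMSO mean of its line (log axis; the horizontal line is 100%), for 6 genes in 3 panels by line; symbols give the replicate. BxPC-3 1E5 replicate 1 lies with the 3A4 libraries for SREBF1 and SCD, and PANC-1 1E5 replicate 2 lies above its replicates for SREBF1, FASN and SCD.

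In BxPC-3 the 1E5 libraries split by replicate and by gene. SREBF1 was at 88.9 CPM in replicate 1 and at 182 and 180 in replicates 2 and 3, that is 49.2%, 101% and 99.6% of the DMSO mean. SCD was at 600 CPM in replicate 1 and at 1743 and 2045 in the others, or 36.8%, 107% and 125% of DMSO. Replicate 1 lay within the range of the 3A4 libraries for SCD (496 to 740 CPM) and just below it for SREBF1 (91.2 to 109 CPM). FASN (273, 350 and 445 CPM) and ACACA (156, 208 and 209 CPM) were lowest in the same replicate, while ACLY (203, 164 and 190 CPM) and ME1 (49.2, 48.9 and 48.4 CPM) were not. Replicate 1 stood apart from 2 close replicates for SREBF1, SCD and ACACA, while the FASN libraries were spread evenly. Without it the log2 differences from DMSO were 0.21 for SCD and 0.08 for FASN, and no member was called. Replicate 1 was also the lowest of its group for SREBF1 and SCD in all 4 groups of BxPC-3, with SCD at 1334, 5246, 600 and 496 CPM in it with DMSO, GW3965, 1E5 and 3A4. In PANC-1 replicate 2 was the highest for both genes in all 4 groups, with SCD at 11541, 25040, 3298 and 2521 CPM.

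In PANC-1 6 of the 10 genes had every 1E5 library below every DMSO library, which 23.5% of all genes had. The median log2 change of the 10 was -1.37 in PANC-1 and -0.48 in MIA PaCa-2, beside 0.02 and 0.05 over all genes.

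Other measures moved in the same 1E5 libraries. The mitochondrial share of counts was 1.49% to 2.86% in MIA PaCa-2, against 7.52% to 7.58% with DMSO, and 2.69% to 6.59% in PANC-1, against 6.0% to 7.23%. The 8 epithelial and ductal markers summed to 571 to 635 CPM in the 1E5 libraries of MIA PaCa-2, against 1280 to 1670 with DMSO, and in those of PANC-1 to 800 to 977 CPM, against 3290 to 4990. Markers of blood cells summed to 43.1 to 72.8 CPM with 1E5 in PANC-1 and 8.68 to 14.4 with DMSO, nearly all of it CD68, with PTPRC, the defining one, at a mean of 0.0064 CPM over the line's libraries. The 4 fibroblast markers summed to 8.98 to 28.2 CPM with 1E5 in MIA PaCa-2, against 230 to 239 with DMSO, and to 4.56 to 11.1 CPM in PANC-1, against 46.4 to 163, with DCN and LUM at 0 in each library of both lines. Each sum was nearly all 1 gene. Over the libraries of MIA PaCa-2 COL1A2 averaged 144 CPM and COL1A1 0.659, and over those of PANC-1 COL1A2 averaged 0.0164 and COL1A1 55.1. The part of these measures in the changes of the lipogenic genes was not tested. Fewer cells and less RNA per cell cannot be told apart in these bulk samples.

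With 3A4, 3 members fell in PANC-1 (ACLY, ACACA and FASN), where 3.84% of all genes were called lower. SREBF1 and ACACB fell in MIA PaCa-2, where 6.45% of all genes were called lower. None was called in BxPC-3, where 0.00554% of all genes were called lower. There 6 members were below every DMSO library, as 9.76% of all genes were. ME1 was not called against DMSO in any line. FASN fell 2.36-fold, ACACA 1.82-fold and ACLY 1.74-fold in PANC-1.

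SREBF1 with 3A4 was at 91.2, 109 and 108 CPM in BxPC-3, below the DMSO values of 156, 221 and 165, but the difference of log2 -0.81 ± 0.24 was not called (adjusted p = 0.234). In MIA PaCa-2 it fell from 162, 170 and 141 to 121, 112 and 102 CPM (1.41-fold, log2 -0.50 ± 0.13, adjusted p = 0.025). That call ended without DMSO replicate 1 (0.0803), DMSO replicate 2 (0.0921), 3A4 replicate 2 (0.0697), 3A4 replicate 3 (0.081) or the libraries under 5000000 counts (0.0585). PANC-1 went from 149, 257 and 185 CPM to 67.1, 92.2 and 69.5 without overlap. Its difference of log2 -1.37 ± 0.42 had an adjusted p of 0.0738, and of 0.00157 without 1E5 replicate 2. The adjusted p reached 0.212 with another library left out and was 0.0235 with a replicate block. The fall was also called with only the compared groups (0.0105), with all 36 libraries in 1 fit (0.00707) and by DESeq2 (0.011). RLE scaling and the fit without the filter left it uncalled. MLXIPL was called in no line.

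ACLY in PANC-1 fell from 419, 446 and 381 CPM to 246, 251 and 218 with 3A4 (log2 -0.80 ± 0.12, adjusted p = 0.00295). ACACA there fell from 324, 331 and 285 CPM to 173, 184 and 160 (log2 -0.86 ± 0.14, adjusted p = 0.0051). FASN fell from 1437, 1479 and 1452 CPM to 584, 691 and 577 (log2 -1.24 ± 0.24, adjusted p = 0.0122). All 3 genes kept 3A4 libraries well apart from DMSO, and the FASN call ended without 3A4 replicate 1 (0.0592) or 3A4 replicate 3 (0.0591). ACACB fell in MIA PaCa-2 from 14.7, 14.2 and 8.70 CPM to 2.86, 5.61 and 7.35 (2.36-fold, log2 -1.24 ± 0.32, adjusted p = 0.0267). At these levels single libraries decided the call, which ended without DMSO replicate 1 (0.0857), DMSO replicate 2 (0.084), 3A4 replicate 1 (0.0524), 3A4 replicate 2 (0.0806) or the libraries under 5000000 counts (0.0564).

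SCD with 3A4 was below DMSO in each library of each line. BxPC-3 libraries were at 496, 636 and 740 CPM against 1334, 1857 and 1700, a difference of log2 -1.39 ± 0.34 that was not called (adjusted p = 0.179). Without BxPC-3 1E5 replicate 1 it was called at the same size (log2 -1.39, adjusted p = 0.0187). With another BxPC-3 library left out the adjusted p reached 0.474. In PANC-1 SCD was at 1531, 2521 and 1655 CPM against 6548, 11541 and 6645 (log2 -2.12 ± 0.59, adjusted p = 0.0533), and it was called without 1E5 replicate 1 (0.029), 1E5 replicate 2 (0.000633) or 1E5 replicate 3 (0.0425). With another PANC-1 library left out the adjusted p reached 0.173. The SCD values in MIA PaCa-2 were 974.8, 1273 and 1171 CPM against 1594, 1756 and 1331 (log2 -0.45 ± 0.20, adjusted p = 0.14). With all libraries DESeq2 called the fall in BxPC-3 (0.00408) and in PANC-1 (0.0217), where a fit of the compared groups only (0.00629) and a fit of every line together (0.00451) called it as well. An edgeR fit with a replicate block also called the SCD fall in BxPC-3 (adjusted p = 0.0323) and in PANC-1 (0.0162).

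ME1 and SCD5 in BxPC-3 were low without being called. ME1 stood at 32.3, 33.6 and 31.3 CPM with 3A4 and 40.8, 46.8 and 47.4 with DMSO (log2 -0.47 ± 0.09, adjusted p = 0.0941). SCD5 stood at 12.3, 13 and 12.5 CPM against 15.7, 17.5 and 16.6 (log2 -0.40 ± 0.13, adjusted p = 0.254). In BxPC-3 6 of the 10 genes (SREBF1, ME1, ACACA, FASN, SCD and SCD5) had all 3A4 libraries below all DMSO libraries, which 9.76% of all genes had. None was called, with 0.0277% of genes called higher and 0.00554% lower by edgeR, while 4 of the members, SREBF1, ME1, ACACA and SCD, were called lower by DESeq2, as 1.26% of all genes were. At an unadjusted p under 0.05 the edgeR fit had the same 6 of the 10 lower, beside 7.02% of all genes. Without 1E5 replicate 1, 1 member (SCD) was called, against 0.0376% of genes.

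In MIA PaCa-2 the count with 3A4 was 2 of 10 lower, where 6.45% of all genes were called lower and 7.3% higher, and 4 had no overlap and were lower, where 17.1% of all genes did. In PANC-1 it was 3 of 10 lower, where 3.84% were called lower and 3.53% higher; 6 of 10 had no overlap, where 18.3% of all genes did. Without 1E5 replicate 2 there were 5 (SREBF1, ACLY, ACACA, FASN and SCD), against 8.91% of genes. The median log2 change of the 10 was -0.83 in PANC-1, -0.45 in BxPC-3 and -0.39 in MIA PaCa-2, beside 0.015, 0.004 and 0.029 over all genes. In the same PANC-1 libraries the epithelial and ductal markers summed to 2930 to 3700 CPM, against 3290 to 4990 with DMSO, and the blood cell markers to 39.7 to 42.8 CPM, against 8.68 to 14.4, nearly all of it CD68. The mesenchymal markers there summed to 2290 to 2540 CPM with 3A4 and 2770 to 3450 with DMSO, and the fibroblast markers to 9.59 to 31.6 against 46.4 to 163, with DCN and LUM at 0 in every library. In MIA PaCa-2 the mesenchymal markers summed to 4820 to 6980 CPM against 7660 to 9600, the fibroblast markers to 91.1 to 169 against 230 to 239, and the mitochondrial share was 5.53% to 6.62% against 7.52% to 7.58%. VIM made up nearly all of the mesenchymal sums in PANC-1 and MIA PaCa-2. The fibroblast sums were nearly all COL1A1 in PANC-1 and COL1A2 in MIA PaCa-2. In BxPC-3 the mesenchymal markers summed to 34.2 to 41.3 CPM against 21.7 to 31.0. The blood cell markers, again nearly all CD68, were higher with 3A4 in these lines too, at 19.4 to 26.5 CPM against 6.55 to 15.1 in MIA PaCa-2 and 20.6 to 24.2 against 8.21 to 13.5 in BxPC-3. Their part in the changes of the members was not tested.

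The members of low level or of small change are given here by their libraries. ELOVL6 in BxPC-3 ran from 53.4 to 81.4 CPM over all 12 libraries, and no ligand group stood apart from DMSO. In MIA PaCa-2 it was at 20.6, 22.6 and 20.6 CPM with DMSO and at 16.5, 13.4 and 16.4 with 1E5, below DMSO in each library but not called (log2 -0.47 ± 0.23, adjusted p = 0.121). SCD5 in MIA PaCa-2 was at 22.1, 17.5 and 16.5 CPM with DMSO and at 11.2, 14.7 and 13.8 with 3A4 (log2 -0.50 ± 0.21, adjusted p = 0.136). This difference, too, had no overlap and no call. MLXIPL in MIA PaCa-2 was at 5.61, 4.39 and 8.55 CPM with 3A4, against 11.9, 8.37 and 9.86 with DMSO, with 1 library inside the DMSO range. ACACB in PANC-1 was at 10.7, 13.9 and 9.39 CPM with 3A4 and 14.4, 22.9 and 13.7 with DMSO, and was not called (adjusted p = 0.144).

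Compared with each other at the same dose and time, 3A4 and 1E5 differed in ME1 in each of the 3 lines, and the 1E5 libraries held more of it. The 3 within-line comparisons were adjusted over all genes tested in each. ME1 was 3.06-fold lower with 3A4 than with 1E5 in MIA PaCa-2 (log2 -1.61 ± 0.19, adjusted p = 6.06e-05), 1.90-fold lower in PANC-1 (log2 -0.93 ± 0.13, adjusted p = 0.000288) and 1.51-fold lower in BxPC-3 (log2 -0.59 ± 0.09, adjusted p = 0.0276). The BxPC-3 call ended without any 1 of 7 libraries, which were GW3965 replicates 2 and 3, 1E5 replicates 2 and 3 and the 3 3A4 replicates (adjusted p from 0.0531 to 0.134).

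In MIA PaCa-2 SREBF1 was 1.67-fold, ACLY 1.65-fold and FASN 2.20-fold higher with 3A4 than with 1E5 (adjusted p = 0.000758, 0.00549 and 0.000213). SCD did not differ by the test there, with a 95% interval of the log2 difference from -0.49 to 0.36. In PANC-1 ACLY was 1.60-fold, ACACA 1.82-fold, FASN 2.34-fold and ELOVL6 2.26-fold higher with 3A4 (adjusted p = 0.000902, 0.000582, 0.00208 and 0.0285), and MLXIPL was 4.75-fold lower (log2 -2.25, adjusted p = 0.00264). Without 1E5 replicate 2 the MLXIPL difference was smaller (log2 -1.55, adjusted p = 0.00469) and the FASN difference larger (log2 1.66, adjusted p = 3.16e-06). The ELOVL6 call ended without 1E5 replicate 2 (0.0567), 3A4 replicate 2 (0.0826) or 3A4 replicate 3 (0.0746).

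SREBF1 and SCD in PANC-1 turned on 1E5 replicate 2. With all libraries SREBF1 differed between 3A4 and 1E5 by log2 -0.11 (95% interval -1.02 to 0.81) and SCD by 0.37 (-0.88 to 1.62). Without that replicate SREBF1 was higher with 3A4 by log2 0.77 (adjusted p = 0.017) and SCD by 1.76 (adjusted p = 0.000724), so the direction of SREBF1 reversed. BxPC-3 SCD differed by log2 -1.23 (95% interval -1.98 to -0.48, adjusted p = 0.175), and without BxPC-3 1E5 replicate 1 by -1.61 (adjusted p = 0.0158). With another BxPC-3 library left out the adjusted p reached 0.524.

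Between the ligands, 1 member was called lower with 3A4 and none higher in BxPC-3, where 0.0554% of all genes were lower and 0.0887% higher. In MIA PaCa-2 it was 1 lower and 3 higher, against 15.1% and 17.2% of all genes. In PANC-1 it was 2 lower and 4 higher, against 18.8% and 18.5%.

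The response to 1E5 differed among the 3 lines for 6 members, tested as a ligand-by-line interaction over all 36 libraries. ACACA had the smallest adjusted p (7.74e-07), with log2 changes of -1.73 in PANC-1, -0.50 in MIA PaCa-2 and -0.08 in BxPC-3. FASN (2.21e-06) changed in the same order of lines by log2 -2.46, -1.37 and -0.08, ACLY (2.32e-05) by -1.48, -0.86 and -0.02, and SCD (0.00471) by -2.48, -0.38 and -0.16. ME1 (2.05e-05) went the other way, by 0.83, 1.56 and 0.12. SCD5 (0.0161) changed by -2.18, -0.29 and -0.11, and its difference ended without PANC-1 DMSO replicate 2 (0.0533). Of all 22132 genes tested, 38.5% differed in the same way. The share of 6 of 10 was not tested against this large background. ELOVL6 missed the threshold (0.054) and passed it without any 1 of 8 of the 36 libraries (lowest 0.0243, without PANC-1 DMSO replicate 1). With another library left out its adjusted p reached 0.223. SREBF1 was not called (adjusted p = 0.115), and was called without PANC-1 1E5 replicate 2 (0.000126) or without BxPC-3 1E5 replicate 1 (0.0336). With another library left out its adjusted p reached 0.29.

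For 3A4 the lines differed for ACLY alone (adjusted p = 0.0426; log2 -0.80, -0.14 and -0.11 in the same order), where 5.89% of all genes differed. That call ended without any 1 of 13 of the 36 libraries (adjusted p from 0.0518 to 0.123, the highest without PANC-1 3A4 replicate 3). FASN just missed the threshold (adjusted p = 0.0501), and passed it without any 1 of 10 libraries (lowest 0.00973, without PANC-1 1E5 replicate 2). SCD (0.174) passed it only without PANC-1 1E5 replicate 2 (0.026). With other single libraries left out the adjusted p reached 0.119 for FASN and 0.336 for SCD. For GW3965 no member differed among the lines by edgeR, where 0.104% of all genes did, and ME1 alone had an unadjusted p under 0.05 (0.0298, adjusted 0.722). A p that misses the threshold does not show that the lines responded alike.

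Among 58 other genes of the pathway in 9 lists, the LXR target list held most of the calls with GW3965 in PANC-1 and BxPC-3: 4 of 4 targets were called higher in PANC-1, 3 of 4 in BxPC-3 and 2 of 4 in MIA PaCa-2, and 0 of 4 LXR and RXR receptors in each line. Of the 58, 56 were tested in PANC-1, 54 in BxPC-3 and 52 in MIA PaCa-2, and 4, 5 and 5 were called higher and none lower, beside 0.0431%, 0.477% and 0.418% of all genes called higher. ABCA1, a cholesterol exporter and LXR target, rose in all 3 lines, from 44.9 ± 11.6 to 337 ± 15.9 CPM in BxPC-3 (SD, n = 3), 7.35 ± 1.58 to 190 ± 43.7 in PANC-1 and 13.5 ± 3.95 to 102 ± 27.8 in MIA PaCa-2. The other LXR targets differed by line: ABCG1, another exporter, rose in MIA PaCa-2 and PANC-1, MYLIP, a ligase for the LDL receptor, and LPCAT3, which remodels phospholipids, in BxPC-3 and PANC-1. ACSL1 and ACSL3, which activate fatty acids to CoA esters, rose in BxPC-3 and MIA PaCa-2 (log2 0.92 to 1.14), and ACSS2, which makes acetyl-CoA from acetate, rose in MIA PaCa-2 (log2 1.23).

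With 1E5, 12 of the 52 were higher and 19 lower in MIA PaCa-2, 13 of the 56 higher and 15 lower in PANC-1, and none of 54 either way in BxPC-3. The counts called higher are near the share over all genes (23.6% in MIA PaCa-2 and 19.7% for PANC-1), and 23.4% and 19.3% of all genes were called lower. FADS2, the desaturase of polyunsaturated acids, fell in both lines (log2 -3.66 in PANC-1 and -1.88 in MIA PaCa-2), as did LPCAT3 (log2 -1.75 and -1.60) and LPIN1, a phosphatidate phosphatase (log2 -1.55 and -1.08). IDH1, another cytosolic source of NADPH beside ME1, rose in both (log2 1.53 and 1.72). ABCG1 rose in both as well (log2 2.36 and 1.63), against the direction of LPCAT3. MLXIP, the paralogue of MLXIPL, fell in PANC-1 (log2 -1.57), where MLXIPL rose, and TXNIP, a target of both, rose in MIA PaCa-2 (log2 1.83). Among the LXR receptors, NR1H2 (LXRβ) rose in both lines (log2 0.56 and 0.57) and NR1H3 (LXRα) in PANC-1 (log2 0.88). Of the other elongases and desaturases 6 of 8 tested fell in PANC-1 and none rose.

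With 3A4, 6 of the 52 were higher and 8 lower in MIA PaCa-2, 6 of the 56 were lower and none higher in PANC-1, and none of 54 was called in BxPC-3. Over all genes it was 7.3% higher and 6.45% lower in MIA PaCa-2, and 3.53% higher and 3.84% lower for PANC-1. FADS2 fell in both lines (log2 -1.74 in PANC-1 and -1.28 in MIA PaCa-2), as did LPCAT3 (log2 -0.67 and -1.02). FADS1, its partner, rose in MIA PaCa-2 (log2 0.61) and fell in PANC-1 (log2 -1.09). IDH1 fell in MIA PaCa-2 (log2 -0.94), opposite to its rise with 1E5. ABCA1 was called with neither compound in any line. The calls with each ligand use the same DMSO libraries.

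Across the 36 libraries, with each line centred on its own mean, the genes whose log2 CPM was most like that of SREBF1 among 12386 were SCD (Pearson r = 0.961), FASN (0.934), ACSS2 (0.900), MVD (0.898) and LSS (0.898). For FASN they were ACACA (0.967), LSS (0.963), LPCAT3 (0.941), SREBF1 (0.934) and SCD (0.928). SCD was most like SREBF1 (0.961), ACACA (0.937), FASN (0.928), ACSS2 (0.924) and TMEM135 (0.920). MVD and LSS are enzymes of cholesterol synthesis. These correlations describe libraries that share the ligand groups and are not independent. ME1 was less like FASN, with r = 0.054, and MLXIPL and SREBF1 had r = 0.015.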

How the data were processed

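RNA-seq gene counts of 36 libraries (3 lines, 4 treatments, 3 replicates each) were used as the authors deposited them. Per the submitters' processing notes StringTie 1.3.1c, SAMtools 1.3, HISAT2 2.0.2 and Trim Galore 0.4.4 were used, with GRCh38. Not given in the sources used here are the annotation, the strand setting and the handling of reads that map to several places, so overlapping genes and near-identical copies are uncertain. Gene names and exon lengths are of GENCODE release 29. Of 58658 rows, 407 transcript rows and 8 rows of assembled loci were left out (at most 0.00396% of a library's counts), and 58243 gene rows were kept, 57980 with a symbol.

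Groups were taken from the labels. In each line, the 12 libraries were fitted together in R 4.3.3 with edgeR 4.0.16 (limma 3.58.1) and its quasi-likelihood test, after TMM scaling and filterByExpr (minimum count 10, minimum total 15), with Benjamini-Hochberg adjustment over all genes tested and a threshold of 0.05. Differences between lines used 1 fit of all 36 libraries. CPM use the TMM-scaled library sizes, SD is over replicates, and intervals are 95%. Total counts per library set the precision, and limits for a 0 cover counting error only. The scripts were tested on simulated counts with known changes.

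Each result was also computed with DESeq2 1.42.0, with a replicate block, without the filter, with RLE scaling, with only the compared groups, with each library left out in turn, over 36 libraries at once, and in MIA PaCa-2 without libraries under 5000000 counts. The 10 genes and the lists were chosen with earlier results of these data known. Named genes are the 10 members, up to 3 called genes with the largest log2 change from each pathway list and comparison, the 4 LXR targets used as a check of the ligands, and the 5 genes most like SREBF1, FASN and SCD among those with a mean of at least 5 CPM (log2 CPM with a prior count of 2).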

Additional observations from a re-analysis of the deposited data

Results flagged for a closer look

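The response of 6 of the 10 genes to 1E5 differed among the 3 lines by the ligand-by-line interaction test of edgeR over 36 libraries. The same test called 38.5% of all 22132 genes. The adjusted p was 7.74e-07 for ACACA, 2.21e-06 for FASN, 2.05e-05 for ME1, 2.32e-05 for ACLY, 0.00471 for SCD and 0.0161 for SCD5. The response to 3A4 differed for ACLY (adjusted p = 0.0426). The cause of these differences was not tested.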

How the results depend on the processing

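Over 18 comparisons and 180 member results, 66 were called and 47 of these were called under every alternative run; 41 changed their call under at least 1 alternative. With 3A4 in BxPC-3 no member was called, while 2 were with the replicate block and 4 by DESeq2. For 3A4 against 1E5 in BxPC-3 the count of 1 became 0 with only the compared groups, 0 with all 36 libraries in 1 fit and 2 by DESeq2. With 3A4 in MIA PaCa-2 the count of 2 became 1 with no filter and 0 without libraries under 5000000 counts, 0 with only the compared groups and 0 with all 36 libraries. With GW3965 in PANC-1 the count of 2 became 1 under RLE scaling. With 3A4 in PANC-1 the count of 3 became 5 with the replicate block, 5 with only the compared groups, 5 with all 36 libraries and 5 by DESeq2. The difference among lines in the response to 3A4 counted 1 member, 0 with no filter and 4 with the replicate block. The cause was not tested.

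Leaving out single libraries gave these lowest and highest counts. In BxPC-3 they were 2 to 5 with GW3965, 0 to 0 with 1E5, 0 to 1 with 3A4 and 0 to 2 for 3A4 against 1E5. In PANC-1 they were 0 to 4, 6 to 8, 2 to 5 and 5 to 8 in the same order, and for MIA PaCa-2 2 to 3, 4 to 6, 0 to 2 and 4 to 5. Between lines in DMSO they were 9 to 9, 4 to 4 and 6 to 7, and for the differences among lines 0 to 0 (GW3965), 5 to 7 (1E5) and 0 to 3 (3A4). SREBF1 for 3A4 against 1E5 in PANC-1 reversed from log2 -0.11 to 0.77 without PANC-1 1E5 replicate 2; over the libraries left out in turn it ran from -0.43 (without 1E5 replicate 3) to 0.77, and with the replicate block it was 0.07.

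Replicate numbers were not taken to pair the libraries: of 18 pairs per line, 8, 5 and 4 had a correlation of deviations over 0.1, with lowest values of 0.021, -0.062 and -0.024, although 12, 10 and 11 of 12 libraries were closest to their own number. With the replicate block the counts were 6, 0, 2 and 1 in BxPC-3, 2, 8, 5 and 7 in PANC-1, 3, 5, 2 and 5 in MIA PaCa-2, and 0, 7 and 4 for the differences among lines. With it the 3A4 falls of SCD and ME1 in BxPC-3 were called (adjusted p = 0.0323 for each). So were those of SCD and SREBF1 in PANC-1 (0.0162 and 0.0235). The comparisons between lines in DMSO were not fitted with the block. Depth limits MLXIPL and ACACB in BxPC-3 and ELOVL6 and SCD5 in PANC-1, which rest on few counts.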
